A study of Mus musculus with 24 samples.

Results

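The transcripts described here encode 10 histone acetyltransferases other than Kat2a and its close relative Kat2b, measured in the CA1 subfield of the mouse hippocampus when Kat2a was reduced and when the animals had been exposed to novelty. They are Crebbp, Ep300, Kat5, Kat6a, Kat6b, Kat7, Kat8, Hat1, Ncoa1 and Ncoa3. They were chosen by gene name, by a rule that itself uses no measured value, from the 38355 genes of the count tables. All 10 were present, and all 10 passed the filter on low counts in every comparison. All animals were C57BL/6J mice aged 3 to 5 months in which both copies of Kat2a were floxed (Kat2afl/fl). Controls had this allele alone. The conditional knockouts (cKO) also had a CamKII_alpha-cre transgene, whose promoter drives Cre in excitatory forebrain neurons. Other cells of the dissected tissue would then keep Kat2a, but Kat2a was not measured by cell type. Mice of each genotype were either naive or exposed to novelty for 15 min. Libraries of polyadenylated RNA numbered 6 (naive) and 5 (novelty) for controls, and 6 (naive) and 7 (novelty) for cKO. The labels do not say that the libraries of a group came from separate mice, so the p-values measure the spread between these libraries, which may be technical.

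Histone acetyltransferases move an acetyl group from acetyl-CoA to lysines of histones and other proteins, which loosens chromatin and creates docking sites for bromodomain proteins. They fall into families with separate catalytic folds. Kat2a and Kat2b belong to the GNAT family. Crebbp (CBP) and Ep300 (p300) are large paralogous coactivators that are recruited by CREB and many other activity-regulated factors, and CBP is well known for its part in hippocampal memory. The MYST family comprises Kat5 (TIP60), Kat6a (MOZ), Kat6b (MORF), Kat7 (HBO1) and Kat8 (MOF), each working in complexes with other proteins. Hat1 acetylates newly made histone H4 before its deposition on DNA. Ncoa1 and Ncoa3 are p160 coactivators of nuclear receptors that have been assigned acetyltransferase activity and that bring CBP and p300 to hormone-responsive genes. Several of these enzymes can acetylate the same histone tails as Kat2a, so their levels bear on which acetyltransferases the tissue has when Kat2a is lowered.

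The libraries held 10.7 to 35.8 M reads assigned to genes, with a median of 19.0 M, and the shallowest was control naive library 2. Levels are given in CPM, the reads of a gene scaled to a common library total, with effective library sizes from TMM (trimmed mean of M-values). Kat2a itself checked the genotype labels. Among naive mice it had 63.6 ± 3.98 CPM (SD, n = 6) in controls and 36.2 ± 2.42 (n = 6) in cKO. After novelty the values were 60.2 ± 3.57 (n = 5) and 35.1 ± 2.26 (n = 7), with no overlap between genotypes. Whether reads fell in the deleted part of Kat2a is not known. Markers of excitatory neurons, CA1 pyramidal cells, interneurons, oligodendrocytes, astrocytes, microglia, endothelium and dentate granule cells all had reads. So had those of the CA3 and CA2 fields and of choroid plexus, and no marker had 0 reads over a whole group. Some were near the floor. The choroid plexus markers Folr1 and Kcne2 had medians of 0.316 and 0.103 CPM and 0.0 in their lowest library. Of the others, Ttr had a median of 1.48 and Kl of 21.2, and the CA3 and CA2 marker Iyd had 0.872.

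Among the 10 transcripts, Ncoa1 was the most abundant per length and Crebbp the least. Levels of different genes were compared as CPM per kilobase of exon, with the union of GENCODE M21 exons as length. Over the 24 libraries Ncoa1 measured 27.4 ± 1.58 CPM per kilobase (SD, n = 24), and it lay above Kat7 (18.0 ± 0.600) in every library. Kat5 followed at 13.5 ± 0.758 and Kat6a at 11.7 ± 0.617, and Kat5 was above Kat6a in 23 of 24 libraries. A group of 4 came next with overlapping ranges, Ep300 at 7.04 ± 0.423, Kat8 at 7.00 ± 0.416, Hat1 at 6.61 ± 0.482 and Ncoa3 at 5.87 ± 0.567 CPM per kilobase. Ep300 was above Kat8 in only 14 of 24 libraries, so their order is not resolved. Kat6b (4.80 ± 0.384) and Crebbp (4.34 ± 0.293) were lowest. Of the paralogs, Ep300 exceeded Crebbp in all 24 libraries, since the lowest Ep300 value was 6.34 and the highest Crebbp value 5.12 CPM per kilobase.

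Against this scale the loss of Kat2a transcript changed its place among the acetyltransferases. In control naive libraries Kat2a had 18.3 ± 1.14 CPM per kilobase (SD, n = 6), about the level of Kat7 (18.2 ± 0.708), and was above Kat7 in 3 of 6 libraries. In cKO naive libraries it had 10.4 ± 0.694 CPM per kilobase (n = 6) and lay below Kat5 and Kat6a in all 6. Kat2b measured 4.44 ± 0.366 CPM per kilobase over all libraries, near Kat6b and Crebbp. With the longest annotated transcript as length in place of the exon union, the levels of Kat6a and Ncoa3 moved by less than their SD and the other 8 rose by more. Kat6b then had 10.5 CPM per kilobase, level with Ep300 at 10.5. Kat8 had 12.8, above Kat6a at 11.8, and Kat7 rose to 28.0 while Ncoa1 rose to 32.1. In control naive libraries Kat2a then had 19.45, below Kat7 at 28.23 and Kat5 at 20.83. In cKO naive libraries it had 11.07, below Kat5 at 21.51 and Kat6a at 11.98. The places of Kat6b and Kat8, and of Kat6a above Kat8, therefore rest on the length used. So does the place of Kat2a beside Kat7 and above Kat5 in control naive libraries.

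**Figure D1:**
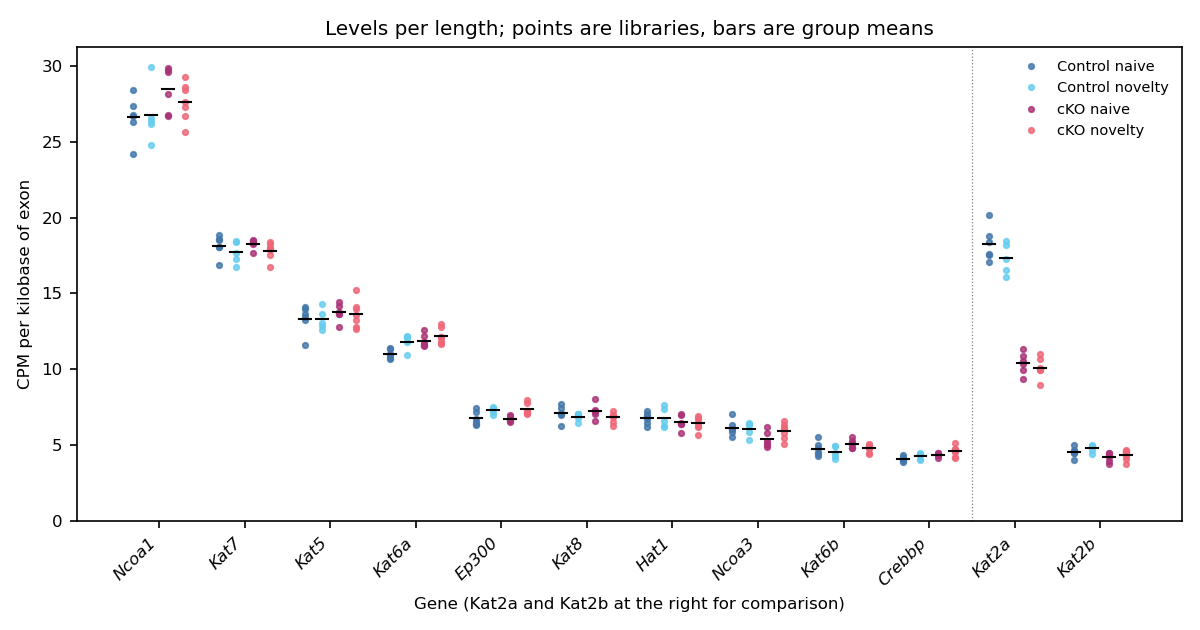
Levels per length of the 10 acetyltransferase transcripts, with Kat2a and Kat2b to the right; the vertical axis is CPM per kilobase of exon, points are libraries coloured by group and black bars are group means. Ncoa1 (27.4 over all libraries) and Kat7 (18.0) stand highest and Crebbp (4.34) lowest, and Kat2a falls from 18.3 in control naive to 10.4 in cKO naive libraries.

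Each gene was tested with edgeR's quasi-likelihood test, fitted over all genes, and passed at a Benjamini-Hochberg adjusted p below 0.05. In controls, novelty against naive, none of the 10 passed, while 1.22% of all genes did. Of the 10, 2 had an unadjusted p under 0.05, against 11.0% of all genes, and DESeq2 passed none of them, against 2.58%. In cKO mice, novelty against naive, none of the 10 passed in edgeR, against 2.41% of all genes. There 2 of 10 had an unadjusted p under 0.05, against 13.9%, and DESeq2 passed 1, Ep300, against 4.05%. Between genotypes in naive mice none passed in edgeR, against 0.801% of all genes. There 4 of 10 had an unadjusted p under 0.05, against 13.6%, and DESeq2 passed none, against 2.91%. Between genotypes after novelty none passed in edgeR, against 4.53%, none had an unadjusted p under 0.05, against 20.7%, and DESeq2 passed none, against 7.19%.

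The fit over all 24 libraries gave each effect averaged over the other factor. For novelty averaged over genotypes 1 of 10 passed, Ep300, which rose, where 6.55% of all genes passed. Unadjusted, 3 of 10 had a p under 0.05, against 17.6%, and DESeq2 also passed Ep300 alone, against 7.95%. For genotype averaged over exposures 1 of 10 passed, Kat6a, which rose, where 12% of all genes passed. Unadjusted, 5 of 10 had a p under 0.05, against 26.6%, and DESeq2 passed 2, Kat6a and Crebbp, against 13.5%. A share of 1 in 10 is near the share of all genes in both averages. None of the 10 passed for the interaction of genotype and novelty in edgeR or DESeq2, and neither did any other gene (0.0%). There no member had an unadjusted p under 0.05 in edgeR, against 4.11% of all genes. The median log2 fold change of the 10 was -0.007 for the novelty average, beside -0.013 for all genes, and 0.026 for the genotype average, beside 0.005.

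**Figure D2:**
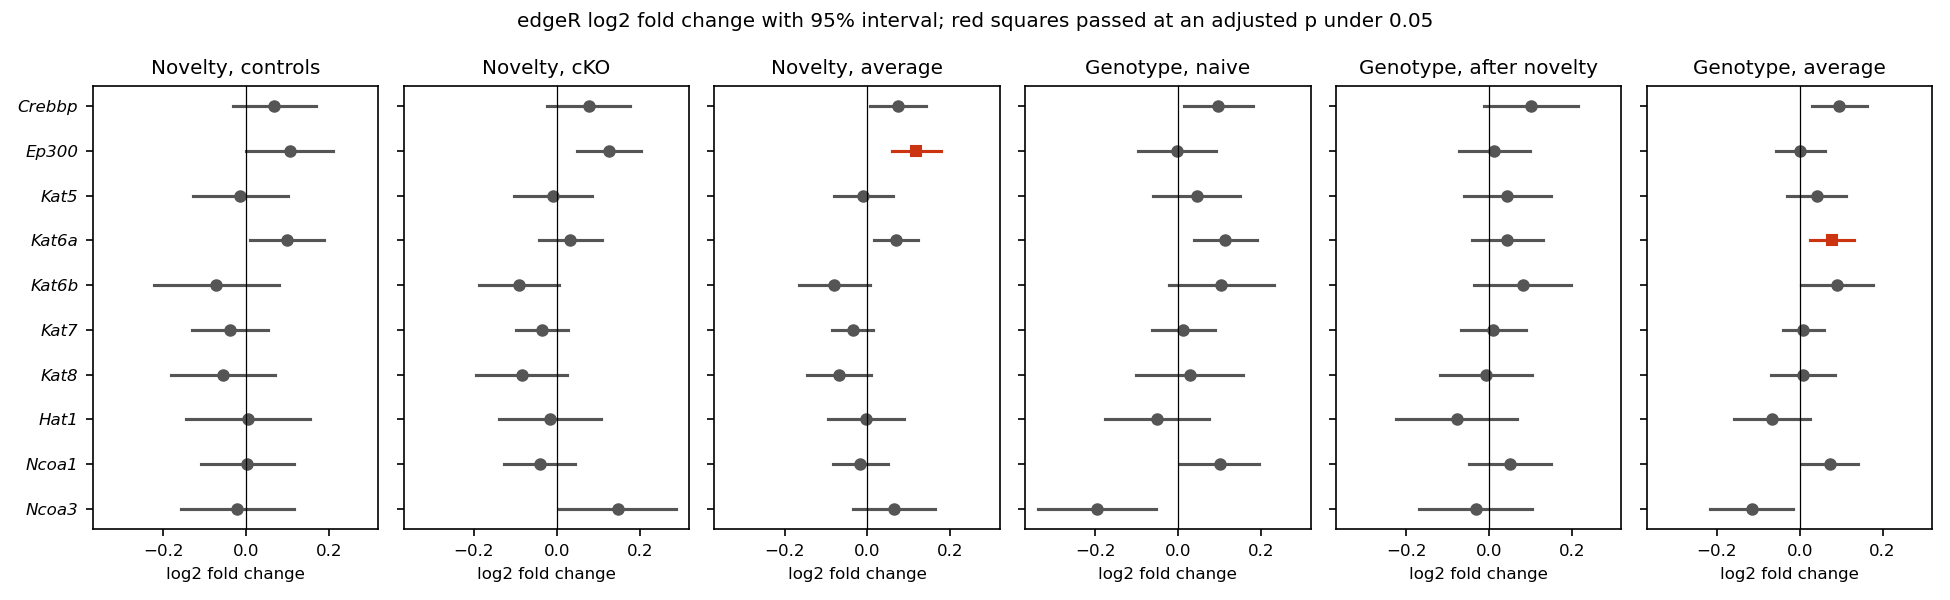
Log2 fold change of each transcript (horizontal axis, points) with its 95% interval (lines) in 6 comparisons; red squares passed at an adjusted p under 0.05 in edgeR. Only Ep300 for the novelty average (0.12) and Kat6a for the genotype average (0.08) passed, and no interval reaches beyond -0.34 or 0.29.

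Ep300 was the transcript with the clearest difference after novelty, and it was higher in both genotypes by 8.54% on average. Ep300 (ENSMUSG00000055024) lies on chromosome 15 at 81586214 to 81652077 on the plus strand in the deposited tables, build GRCm38.p2. In cKO naive libraries it measured 95.8, 94.25, 98.32, 93.1, 99.85 and 95.2 CPM. In cKO novelty libraries it measured 111.1, 102.2, 101.2, 100.5, 103.6, 101.6 and 113.3 CPM. Every novelty library of the cKO mice thus lay above every naive one. Ranges of these groups did not overlap for 1 of the 10 members, Ep300, and for 1.94% of all genes. In control naive libraries Ep300 measured 96.26, 106, 91.35, 90.55, 102.4 and 92.72 CPM, and in control novelty libraries 107.1, 102, 99.83, 106.5 and 105.4. The control groups overlapped, because naive libraries 2 and 5 reached the level of the novelty libraries.

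The log2 fold change of Ep300 with novelty was 0.13 (SE 0.04, edgeR adjusted p = 0.0856) in cKO mice and 0.11 (SE 0.05, edgeR adjusted p = 0.448) in controls. An exact two-sided permutation test over 1716 relabellings gave p = 0.00117 in cKO mice, the smallest it can give, and p = 0.0519 over 462 relabellings in controls. The former follows from the separate ranges and adds nothing to them, and neither p-value is adjusted. Averaged over genotypes Ep300 rose by 0.12 on the log2 scale (SE 0.03, 95% interval 0.06 to 0.18, edgeR adjusted p = 0.0103), the 8.54% given above. The interaction was 0.01 (95% interval -0.11 to 0.13), and the genotype average was 0.00 (-0.06 to 0.06). The authors' deposited table of cKO novelty against cKO naive gives Ep300 a log2 fold change of 0.13 with an adjusted p of 0.0192, and their table for controls gives 0.11 with an adjusted p of 0.246. In the former 4.41% of genes have an adjusted p under 0.05, and in the latter 2.79%. The average passed in all 24 fits that left out 1 library, with adjusted p between 0.00201 and 0.0235 in edgeR. Within libraries numbered 1 to 3 in the titles the average was 0.10 (edgeR adjusted p = 0.367) and within those numbered 4 and above 0.14 (edgeR adjusted p = 0.131). The labels do not call these numbers a batch, and the second set holds only 2 control novelty libraries.

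Crebbp, the paralog of Ep300, leaned higher in cKO mice but did not pass in edgeR. Crebbp (ENSMUSG00000022521) lies on chromosome 16 at 4084048 to 4213404 on the minus strand. Control naive libraries measured 52.5 to 58.45 CPM with a median of 54.55, and control novelty libraries 60.01, 59.72, 54.44, 60.82 and 55.15. The cKO naive libraries measured 55.9 to 60.99 with a median of 58.95, and the cKO novelty libraries 55.76 to 69.36 with a median of 62.61. All 4 ranges overlapped, and the highest value was in cKO novelty library 7. The genotype average was 0.10 on the log2 scale (SE 0.03, 95% interval 0.03 to 0.16, edgeR adjusted p = 0.0522), with an adjusted p of 0.0411 in DESeq2. It was 0.05 within libraries numbered 1 to 3 and 0.14 within the others. It passed in 5 of 24 fits that left out 1 library, namely control naive library 3, control novelty library 4, cKO naive library 2 and cKO novelty libraries 2 and 3, with edgeR adjusted p between 0.0172 and 0.046. In naive mice the difference was 0.10 on the log2 scale (SE 0.04, edgeR adjusted p = 0.294, exact permutation p = 0.0152), and after novelty 0.10 (SE 0.05, edgeR adjusted p = 0.299, exact permutation p = 0.119). For novelty Crebbp had 0.07 in controls and 0.08 in cKO mice, and an average of 0.07 (SE 0.03, edgeR adjusted p = 0.213).

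A stretch of 30 bases just before the RefSeq start site of Ep300 and of Crebbp is shown because Ep300 was the transcript that rose after novelty and the 2 paralogs differ there. Both stretches run from position -35 to -6 relative to the start, from RefSeq in build GRCm38.p6, and capitals mark the matched motif. That of Ep300 is chr15:81586179-81586208 on the plus strand, and that of Crebbp is chr16:4213410-4213439 on the minus strand. In GENCODE M21 both fall inside the 5′ UTR exon of a longer transcript of the same gene.
Ep300: ccccctttttCGCCCCCGCctccttgtggc
Crebbp: cggcggccggGGGCGGGCGGtgagcgctgc
The capitals in Ep300 are the reverse complement of GCGGGGGCG, a consensus of the EGR zinc finger factors, and those in Crebbp are 2 overlapping copies of the GC box GGGCGG. Promoter windows of 300 bases, 250 before and 50 after the start, were searched on both strands for 8 motifs, and 8 of the 10 members had such a window. The EGR sequence was found in 2.92% of 27025 promoters, and among the members in that of Ep300 alone. It holds only G and C, and the Ep300 window had 72.3% GC and that of Crebbp 82.0%. The median over all promoters was 52.7%, and the share among promoters of like GC content was not computed. The GC box was found in 35.9% of promoters, and at least 1 window held it for each of Crebbp, Ep300, Kat5, Kat6b, Kat8, Hat1 and Ncoa1. The full cAMP response element TGACGTCA was found in 1.88% of promoters and in none of the members' windows. A match describes letters only, and binding was not measured.

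**Figure D3:**
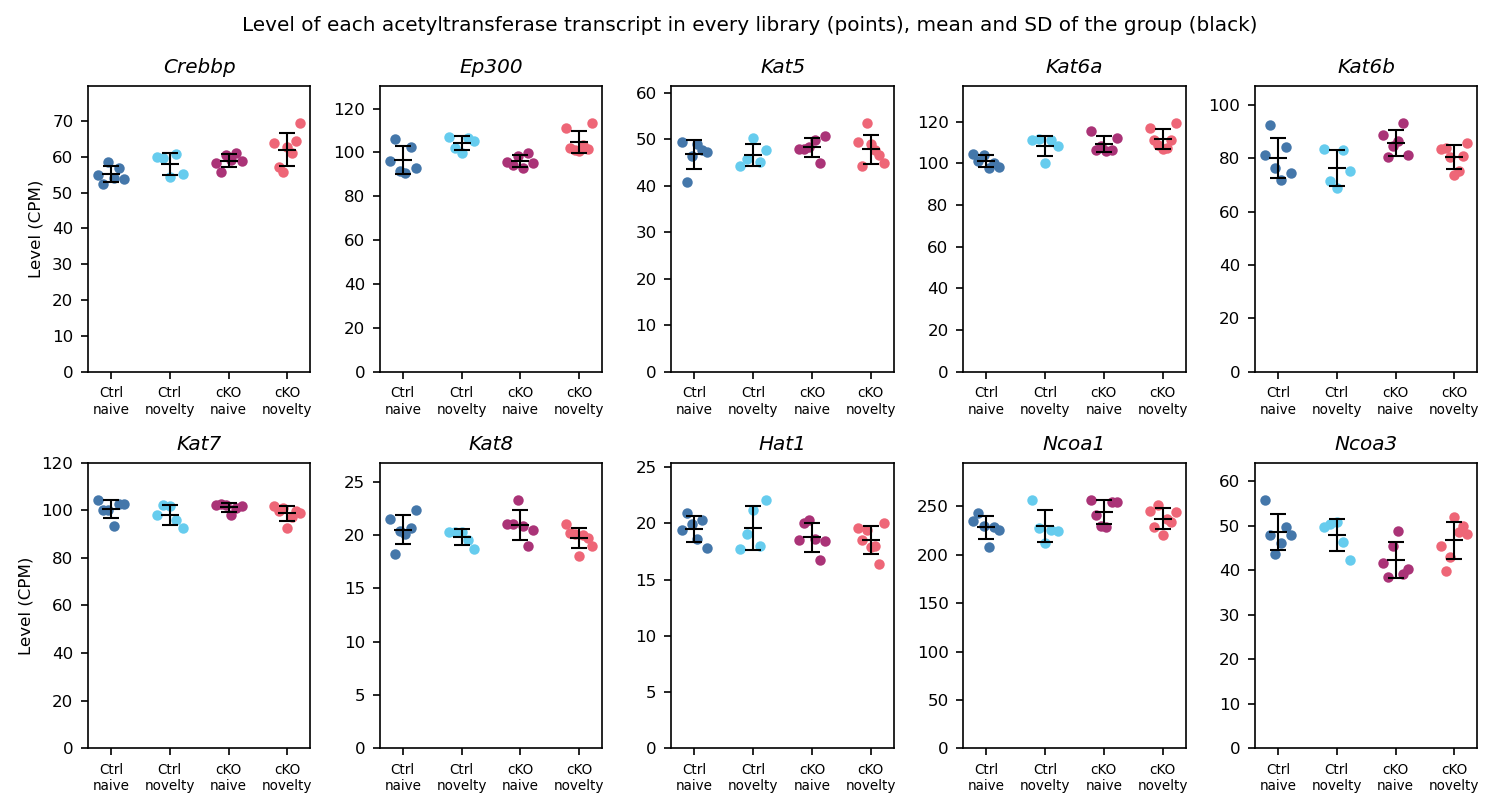
Level of each of the 10 transcripts in CPM (vertical axis, from 0) in every library, grouped by genotype (Ctrl, control; cKO) and exposure; points are libraries, and black marks are the group mean and SD. Ep300 in cKO mice shows novelty libraries (100.5 to 113.3) above all naive ones (93.1 to 99.85), and Kat6a in naive mice shows cKO libraries (106 to 115.6) above all controls (97.68 to 104.4). No other pair of groups that differ only in genotype or only in exposure has separate ranges.

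Kat6a, the catalytic subunit of the MOZ complex, was the transcript with the clearest difference between genotypes, being higher in cKO than in control naive mice. Kat6a (ENSMUSG00000031540) lies on chromosome 8 at 22859535 to 22943259 on the plus strand. Control naive libraries measured 104.4, 101, 104.1, 97.68, 100.2 and 98.39 CPM, and cKO naive libraries 115.6, 106.5, 108.3, 106, 106.5 and 112. The groups did not overlap, although the highest control and the lowest cKO library differed by little. Ranges did not overlap for 1 of the 10 members in this comparison, Kat6a, and for 1.86% of all genes. Control novelty libraries measured 111.1, 111.8, 100.2, 111.2 and 108.1 CPM, and cKO novelty libraries 117, 111, 108.7, 107.1, 107.4, 111.1 and 119.2. After novelty the genotypes overlapped, and no member had separate ranges there, against 3.09% of all genes. In controls, novelty against naive, no member had separate ranges either, against 2.34%.

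The log2 fold change of Kat6a between genotypes was 0.11 in naive mice (SE 0.04, edgeR adjusted p = 0.158, exact permutation p = 0.00216, the smallest that 924 relabellings can give). After novelty it was 0.04 (SE 0.04, edgeR adjusted p = 0.575, exact permutation p = 0.303). The difference between these, the interaction, was -0.07 (SE 0.05, 95% interval -0.18 to 0.03) and did not pass. Averaged over exposures Kat6a rose by 0.08 on the log2 scale (SE 0.03, 95% interval 0.02 to 0.13, edgeR adjusted p = 0.0499), or by 5.47%. This call was at the threshold. It held in 6 of 24 fits that left out 1 library, those without control naive library 1 or 3, control novelty library 4, cKO naive library 4 or cKO novelty library 3 or 4, with edgeR adjusted p between 0.0367 and 0.049. Leaving out any of the other 18 libraries ended it, with adjusted p up to 0.110 in edgeR. It was also lost with no filter on low counts (edgeR adjusted p = 0.117). The authors' deposited table of cKO naive against control naive gives Kat6a 0.11 with an adjusted p of 0.0353, in a table where 3.18% of genes have an adjusted p under 0.05. Their table of cKO novelty against control novelty, where 8.17% do, gives 0.04 with an adjusted p of 0.658. Within libraries numbered 1 to 3 and within those numbered 4 and above the genotype average was 0.08 each, with edgeR adjusted p of 0.359 and 0.351.

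With novelty Kat6a was higher in controls by 0.10 on the log2 scale (SE 0.04, edgeR adjusted p = 0.385, exact permutation p = 0.0216), where 4 of 5 novelty libraries lay above the naive median and control novelty library 3 did not. In cKO mice the value was 0.03 (SE 0.04, edgeR adjusted p = 0.751). The average of 0.07 (SE 0.03, edgeR adjusted p = 0.128) passed only without control novelty library 3, at 0.08 (edgeR adjusted p = 0.0418).

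Median sums of excitatory neuron, CA1 pyramidal, interneuron, dentate granule and oligodendrocyte markers were lower in cKO than in control libraries at both exposures. Those of astrocyte, endothelium and choroid plexus markers were lower as well. Median sums of CA3 and CA2 markers and of microglia markers were higher in cKO libraries. The part of these marker differences in the genotype results was not tested. The summed level of 5 excitatory neuron markers was 5062 to 5777 CPM in control naive and 4191 to 5480 in cKO naive libraries, and 5089 to 6523 against 4440 to 5182 after novelty. For 5 CA1 pyramidal markers the sums were 950.5 to 1258 against 891.5 to 1039, and 1035 to 1144 against 858.2 to 1015, the latter without overlap. The sums of 6 interneuron markers were 912.7 to 1071 against 818.7 to 930.7, and 926.6 to 1051 against 853.3 to 1009. For 6 oligodendrocyte markers they were 4550 to 4787 against 3771 to 4826, and 4241 to 5147 against 2890 to 5621. The 5 dentate granule markers summed to 86.9 to 184.8 against 77.9 to 221 CPM in naive mice and 98.4 to 252 against 53.6 to 171.4 after novelty. The 5 CA3 and CA2 markers summed to 165.4 to 235.5 against 143.2 to 249.7, and 172.8 to 212.9 against 173.4 to 265.5. Astrocyte and microglia sums overlapped broadly, at 1454 to 1820 and 258.4 to 313.9 CPM over all groups. The 4 endothelium markers summed to 104.7 to 124.1 against 81.77 to 112.3 CPM in naive mice, and 96.94 to 119.5 against 81.57 to 120 after novelty. For 4 choroid plexus markers the sums were 20.64 to 108.8 against 21.02 to 31.53, and 22.23 to 41.61 against 21.52 to 26.17. The median choroid plexus sums rest mostly on Kl, whose median over all libraries was 21.2 CPM. Medians were 1.48 for Ttr, 0.316 for Folr1 and 0.103 for Kcne2. Sums of the excitatory neuron markers overlapped between naive and novelty libraries of each genotype. In such bulk tissue fewer cells of a type and less RNA per cell cannot be told apart.

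Kat6b (MORF), the paralog of Kat6a, did not pass in any comparison. Kat6b (ENSMUSG00000021767) lies on chromosome 14 at 21481434 to 21672478 on the plus strand. It measured 80.0 ± 7.64 CPM (SD, n = 6) in naive and 76.3 ± 6.66 (n = 5) in novelty-exposed controls. In cKO mice it measured 85.7 ± 4.79 (n = 6) naive and 80.5 ± 4.50 (n = 7) after novelty. Its novelty average was -0.08 (SE 0.04, 95% interval -0.17 to 0.01, edgeR adjusted p = 0.337), opposite in sign to that of Kat6a. The genotype average was 0.09 (SE 0.04, edgeR adjusted p = 0.166), and all 6 cKO naive libraries were above the control naive median.

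Kat7, the catalytic subunit of HBO1 complexes, varied least of the 10 within groups. Kat7 (ENSMUSG00000038909) lies on chromosome 11 at 95274259 to 95310246 on the minus strand, 5.39 megabases from Kat2a on the same chromosome. Its group means were 100.5 ± 3.92 CPM (SD, n = 6) in naive and 98.1 ± 4.13 (n = 5) in novelty-exposed controls. The cKO means were 101.2 ± 1.73 (n = 6) and 98.7 ± 3.06 (n = 7). The genotype average was 0.01 on the log2 scale with a 95% interval of -0.04 to 0.06, and the novelty average -0.04 (-0.09 to 0.01). The intervals of both averages were the narrowest of the 10.

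Kat5, the catalytic subunit of the NuA4/TIP60 complex, did not pass in any comparison. Kat5 (ENSMUSG00000024926) lies on chromosome 19 at 5603017 to 5610094 on the minus strand. Controls had 46.8 ± 3.15 CPM (SD, n = 6) when naive and 46.6 ± 2.42 (n = 5) after novelty. The cKO libraries had 48.3 ± 1.98 (n = 6) and 47.9 ± 3.11 (n = 7). The genotype average was 0.04 (95% interval -0.03 to 0.11) and the novelty average -0.01 (-0.08 to 0.06). An exon of Rnaseh2c on the other strand overlaps Kat5, at a mean of 5.12 CPM.

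Kat8, which acetylates histone H4 lysines in the MSL and NSL complexes, was among the lowest in reads. Kat8 (ENSMUSG00000030801) lies on chromosome 7 at 127912517 to 127925832 on the plus strand. Naive and novelty-exposed controls had 20.5 ± 1.40 CPM (SD, n = 6) and 19.8 ± 0.716 (n = 5). The corresponding cKO values were 20.9 ± 1.39 (n = 6) and 19.7 ± 0.972 (n = 7). No control novelty library exceeded the control naive median, and 1 of 7 cKO novelty libraries exceeded the cKO naive median. The novelty average was -0.07 (SE 0.04, 95% interval -0.15 to 0.01, edgeR adjusted p = 0.368), which does not pass. With 190 to 711 reads per library the counting error alone averaged 5.14% of the level, close to the spread of 5.94% over all libraries.

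Hat1, the acetyltransferase of new histone H4, did not pass in any comparison either. Hat1 (ENSMUSG00000027018) lies on chromosome 2 at 71388958 to 71441622 on the plus strand. Levels in controls were 19.5 ± 1.14 CPM (SD, n = 6) before and 19.6 ± 1.95 (n = 5) after novelty. In cKO mice they were 18.8 ± 1.28 (n = 6) and 18.6 ± 1.26 (n = 7). The genotype average was -0.07 (95% interval -0.16 to 0.03), and the novelty average 0.00 (-0.10 to 0.09). Its reads numbered 219 to 667 per library, for an average counting error of 5.28%.

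The p160 coactivators Ncoa1 and Ncoa3 leaned in opposite directions between genotypes in naive mice, and neither passed. Ncoa3 (ENSMUSG00000027678, chromosome 2, 165992636 to 166073242, plus strand) measured 55.84, 48, 43.73, 46.04, 49.77 and 48.01 CPM in control naive libraries. The cKO naive libraries measured 41.73, 38.53, 45.48, 48.79, 39.26 and 40.28. Of these, 5 of 6 lay below the control median, and cKO library 4 did not. The difference on the log2 scale was -0.20 (SE 0.07, edgeR adjusted p = 0.194, exact permutation p = 0.0281). After novelty the genotypes measured 47.9 ± 3.57 (SD, n = 5) and 46.7 ± 4.23 CPM (n = 7), with a log2 fold change of -0.03 (edgeR adjusted p = 0.825). The genotype average was -0.12 (SE 0.05, edgeR adjusted p = 0.119), but it was -0.23 within libraries numbered 1 to 3 and 0.00 within those numbered 4 and above. With novelty Ncoa3 had 0.15 in cKO mice (SE 0.07, edgeR adjusted p = 0.337) and -0.02 in controls, and the interaction was 0.16 (95% interval -0.04 to 0.36), the widest interval of the 10. Sulf2 lies on the other strand with an exon over Ncoa3, at a mean of 126 CPM, and the library kit does not mark strand. Its own log2 fold change in naive mice was -0.14 (SE 0.07, edgeR adjusted p = 0.464), and its part in the Ncoa3 value was not tested.

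Ncoa1 (ENSMUSG00000020647) lies on chromosome 12 at 4247363 to 4477182 on the minus strand. Its level was 228 ± 11.9 CPM (SD, n = 6) in naive controls and 229 ± 16.4 (n = 5) in controls after novelty. The cKO level was 244 ± 12.7 (n = 6) when naive and 237 ± 10.6 (n = 7) after novelty. The naive genotypes overlapped, and 5 of 6 cKO libraries lay above the control median. On the log2 scale the difference there was 0.10 (SE 0.05, edgeR adjusted p = 0.351, exact permutation p = 0.0541), and the genotype average 0.07 (SE 0.03, edgeR adjusted p = 0.150). The average passed in 1 of 24 fits, without control novelty library 1, at 0.09 (edgeR adjusted p = 0.047). The novelty average was -0.02 (95% interval -0.08 to 0.05).

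Partners of these enzymes were taken from lists of their complexes and of related functions. Of 17 partners of Kat5 in the NuA4/TIP60 complex, 2 rose and 1 fell for the genotype average, with a median log2 fold change of 0.06 beside 0.005 for all genes. That is 3 of 17, where 12% of all genes passed. Epc2, a subunit related to Enhancer of Polycomb, rose by 0.14 (SE 0.03, edgeR adjusted p = 0.00217), and Vps72, a histone chaperone shared with another remodelling complex, rose by 0.14 (SE 0.04, edgeR adjusted p = 0.0438). Morf4l2, a chromodomain-family subunit, fell by 0.13 (SE 0.03, edgeR adjusted p = 0.00138). None of the 17 passed for novelty in controls, in cKO mice or on average, where 1.22%, 2.41% and 6.55% of all genes passed.

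Among 9 partners of Kat6a, Kat6b and Kat7, 2 scaffold genes were higher in cKO mice for the genotype average, where 12% of all genes passed. For the novelty average 1 rose and 1 fell, where 6.55% of all genes passed. For the genotype average the median of the 9 was 0.11, beside 0.005 for all genes. Brpf3 was higher in cKO mice by 0.19 (SE 0.03, edgeR adjusted p = 0.00057), with 38.4 ± 2.36 CPM (SD, n = 6) in control and 43.0 ± 1.93 (n = 6) in cKO naive libraries. Among novelty-exposed mice the genotype difference was 0.22 (SE 0.05, edgeR adjusted p = 0.0207). Brpf1 was higher in cKO mice by 0.15 (SE 0.04, edgeR adjusted p = 0.0275). Jade2, a scaffold of HBO1 complexes named Phf15 in the deposited tables, rose with novelty by 0.25 (SE 0.03, edgeR adjusted p = 2.01e-05). Its level was 89.1 ± 5.50 CPM (SD, n = 6) before and 103.7 ± 4.19 (n = 5) after novelty in controls, and 87.5 ± 4.96 (n = 6) and 105.7 ± 6.81 (n = 7) in cKO mice. It passed in controls (0.21, edgeR adjusted p = 0.0469) and in cKO mice (0.28, edgeR adjusted p = 0.0036). The small subunit Meaf6 fell with novelty by 0.09 (SE 0.03, edgeR adjusted p = 0.0378).

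Of 12 partners of Kat8 in the MSL and NSL complexes, 1 rose for the novelty average, where 6.55% of all genes passed, and 1 fell for the genotype average, where 12% did. The NSL subunit Kansl3 rose by 0.18 (SE 0.02, edgeR adjusted p = 8.21e-06), from 83.0 ± 2.07 (SD, n = 6) to 96.7 ± 3.01 CPM (n = 7) in cKO mice and from 87.7 ± 3.43 (n = 6) to 95.9 ± 1.98 (n = 5) in controls. It passed in cKO mice on its own (0.22, edgeR adjusted p = 0.000749). The MSL scaffold Msl1 fell by 0.19 for the genotype average (SE 0.03, edgeR adjusted p = 6.06e-05), and it passed both in naive mice (-0.20, edgeR adjusted p = 0.0361) and after novelty (-0.17, edgeR adjusted p = 0.021). None of the 5 partners of Hat1 passed in any comparison, where 0.0% to 12% of all genes passed, and Asf1b was not tested for novelty in controls. For the genotype average 2 of the 5 had an unadjusted p under 0.05 in edgeR, against 26.6% of all genes. Their median log2 fold change there was 0.09, beside 0.005 for all genes.

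Of 16 partners and recruiters of Crebbp and Ep300, 3 rose for the novelty average, where 6.55% of all genes passed, and none passed for the genotype average, where 12% did. The activity-induced factor gene Fos rose by 3.31 on the log2 scale (SE 0.21, edgeR adjusted p = 6.41e-10), Crem, a CREB relative, by 0.36 (SE 0.05, edgeR adjusted p = 5.46e-05), and Srf, serum response factor, by 0.29 (SE 0.05, edgeR adjusted p = 0.000104). The list median was 0.07, beside -0.013 for all genes. Of 10 readers of acetyl-lysine, 2 rose and 2 fell for the genotype average, where 12% of all genes passed. Atad2, a bromodomain ATPase, rose by 0.44 (SE 0.07, edgeR adjusted p = 0.000177), Baz2a rose by 0.12 (SE 0.03, edgeR adjusted p = 0.0105), and Brdt fell by 0.20 (SE 0.04, edgeR adjusted p = 0.00127). For the novelty average Baz2a rose by 0.10 (SE 0.03, edgeR adjusted p = 0.0492). Of 8 genes that supply acetyl-CoA, Acly, the ATP citrate lyase, rose by 0.11 (SE 0.03, edgeR adjusted p = 0.0346) and Pdha1, a pyruvate dehydrogenase subunit, fell by 0.09 (SE 0.03, edgeR adjusted p = 0.0475) for the genotype average, 2 of 8 where 12% of all genes passed. None of the 8 passed for the novelty average, where 6.55% of all genes passed.

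Among 16 other nuclear acetyltransferases, of which 15 were tested, Kat2a fell for the genotype average, which its deletion in the cKO set in advance. Apart from Kat2a only Atf2 passed for this average, and it fell, where 12% of all genes passed. For the novelty average 1, Esco1, rose, where 6.55% of all genes passed. Atf2 fell by 0.09 (SE 0.03, edgeR adjusted p = 0.0441), and Esco1, which acetylates cohesin, rose by 0.19 (SE 0.05, edgeR adjusted p = 0.00802). Their median for the genotype average was 0.00.

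Within groups some of the 10 transcripts varied together and others in opposite directions. After the mean of each group was taken off the log2 CPM, the spread of single members was 0.05 for Kat7 to 0.13 for Ncoa3, beside a median of 0.11 over genes with a mean count of at least 50. Ep300 and Kat6b had the highest correlation of any 2 members (Pearson r = 0.79 over 24 libraries), and Kat6b also varied with Ncoa1 (r = 0.62). Kat6a was most like Ncoa1 (r = 0.57) and Crebbp (r = 0.56). Crebbp and Ep300, the paralogs, reached only r = 0.36. Kat5 varied against Kat6b (r = -0.63) and against Ep300 (r = -0.54), and it was most like Kat8 (r = 0.40). These are descriptions over libraries that share scaling, depth and dissection, without a test. Within libraries numbered 1 to 3 and those numbered 4 and above r was 0.79 and 0.82 for Ep300 with Kat6b, and -0.66 and -0.79 for Kat5 with Kat6b, while for Crebbp with Ep300 it was 0.19 and 0.73. The GC content of the longest transcript was 54.7% for Kat5, the highest of the 10, 48.0% for Kat6b, 51.1% for Ep300 and 44.2% for Hat1, the lowest, and its part in the joint variation was not tested.

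**Figure D4:**
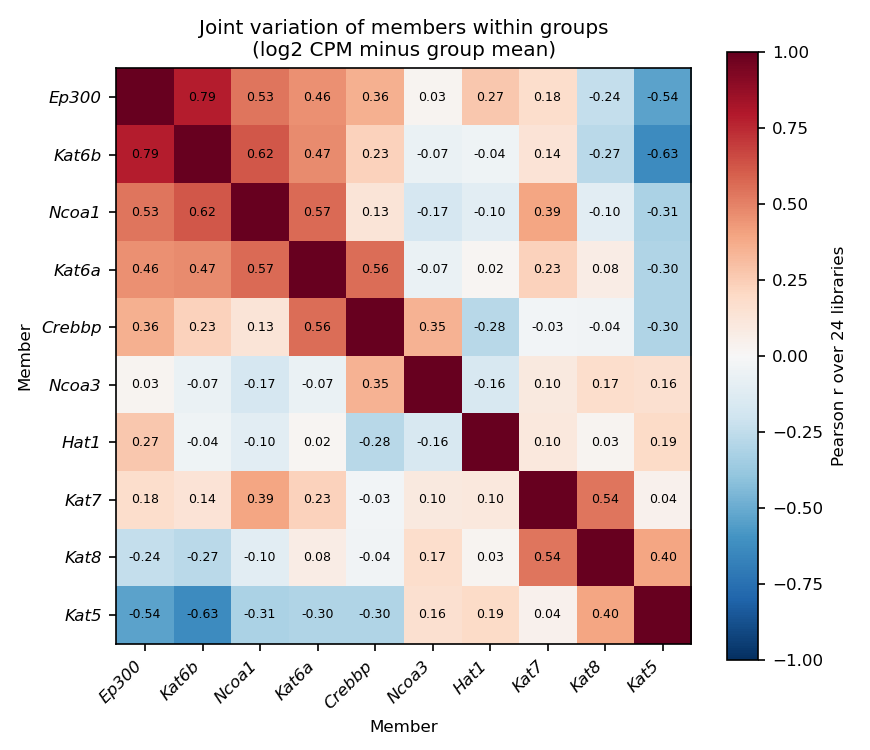
Pearson correlation between members over the 24 libraries, from log2 CPM with the group means taken off; both axes list the 10 genes and the colour scale runs from -1 to 1. Ep300, Kat6b, Ncoa1 and Kat6a share positive values up to 0.79, and Kat5 has negative values with all 4 of them.

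A search over 11959 other genes for those most like Ep300 in this measure gave Kat6b first, followed by Man1a (r = 0.77), Lrch2 (r = 0.77), Drp2 (r = 0.77) and Hnrnpu (r = 0.76), an abundant nuclear RNA-binding protein. Man1a is also 1 of the 5 CA1 pyramidal markers used here. The genes most like Kat6a were the nuclear pore gene Nup153 (r = 0.77), the cyclin G2 gene Ccng2 (r = 0.77), Amot (r = 0.74), Bend4 (r = 0.73) and Prrc2c (r = 0.71). Within each set of library numbers all of these stayed at r of at least 0.58. They were picked for their r over the same 24 libraries, so these values are no independent check.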

How the data were processed

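Polyadenylated RNA of 24 CA1 libraries was prepared with a TruSeq RNA kit, which does not mark strand, per the labels' protocols. The authors deposited raw read counts per gene for each library, whole numbers without normalization. The submitters' processing notes name HTSeq, DESeq2, STAR 2.3.0 and build GRCm38.p2. Not given in the sources used here: annotation release and strand setting. The 5 summary entries of each table were left out; reads without a gene made up 7.58 to 10.36%. Per the file headers, 4 deposited tables of comparisons hold a mean normalised count (a signal), a log2 fold change and a p-value per gene; the authors made them with DESeq2, per the series' design text.

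Counts were tested with edgeR 4.0.16 in R 4.3.3 (robust quasi-likelihood, TMM, filterByExpr at a minimum count of 10, Benjamini-Hochberg adjustment over all genes). Each pairwise comparison used its own groups, and 1 fit over all libraries gave the averages and the interaction. Single members were also compared by exact permutation of libraries on log2 CPM (prior count 2), without adjustment of these p-values. Where the ranges of 2 groups do not overlap, this test must give its smallest p. Code was tested on simulated data. All 10 members are named; of each related list, up to 3 members that passed with the smallest p; and for the member with the smallest p in each average, the 5 genes most like it. List genes with older symbols in the tables were matched by gene ID. Members and lists were chosen with earlier results of these data known. Alternatives were DESeq2 1.42.0, upper-quartile scaling, no filter, leaving out each library, a replicate block, a term for and subsets by library number, a pooled fit and another gene length. Correlations within subsets of library numbers were added after seeing the data. One result from the lists of related genes is not reported here.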

Additional observations from a re-analysis of the deposited data

Results flagged for a closer look

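Within single groups 2 values stood far from the others by Dixon's criterion, out of 40 combinations of member and group tested, where chance alone gives about 2. Kat5 measured 40.74 CPM in control naive library 2, the shallowest library, while the next lowest was 46.44. Kat7 measured 97.82 CPM in cKO naive library 4, while the next lowest was 101.1. Neither gene passed in a comparison.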

How the results depend on the processing

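The count of members that passed stayed at 0 in every alternative for novelty in controls, genotype in naive mice, genotype after novelty and the interaction. For novelty in cKO mice DESeq2 gave 1 (Ep300) and every other alternative 0. For the novelty average, which gave 1, the count was 0 within libraries numbered 1 to 3, 0 within those numbered 4 and above, and 1 to 2 when single libraries were left out. For the genotype average, which gave 1, it was 2 with upper-quartile scaling (Kat6a and Crebbp, edgeR adjusted p = 0.026 and 0.0313), 2 with DESeq2, 0 without a filter on low counts, 0 within either set of library numbers, and 0 to 2 when single libraries were left out. With the replicate block it was 0 (Kat6a 0.07, edgeR adjusted p = 0.0687), and the block changed no other call; Ep300 then had 0.11 (edgeR adjusted p = 0.0202). The numbers share only a name: of 33 same-numbered pairs, 7 had a correlation of deviations over 0.1 (range -0.13 to 0.32). The sets of library numbers hold fewer libraries per group, and the cause of the other changes was not tested. No fold change of a member that passed in any setting reversed; of 68 values that did not pass, 38 kept their sign in every setting. Depth limits Kat8 and Hat1 most.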
